A study of Sus scrofa with 23 samples.

Results

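The ZNF genes are the zinc finger genes whose Ensembl symbol begins with ZNF followed by a number, and 114 of the 8603 genes of the deposited expression table carried such a symbol. The name table used here lists 265 pig symbols of this form. By its name the table is limited to genes that changed in some comparison of the submitters, so every share of changing genes below describes members of an already chosen table. All 114 members reached 1 FPKM (fragments counted on a gene, divided by its length and by the depth of the library) in at least 1 library, and none was dropped from the counts of peak stages except where a group held it below that level. The table held 23 libraries of pig oocytes and preimplantation embryos, 1 library per condition. The study's methods describe further replicate libraries for some NT-D and IV-D stages, which were not analysed here. The IV-D group (8 libraries) held Duroc metaphase II oocytes and embryos made by artificial insemination and flushed from sows. NT-D (8 libraries) and NT-LW (7 libraries) were embryos cloned by somatic cell nuclear transfer from ear fibroblasts of 1 Duroc boar and 1 Laiwu boar and cultured in vitro. The stages were the 1-cell, 2-cell, 4-cell and 8-cell embryo, the morula, and 2 parts of the blastocyst, the part that kept the inner cell mass together with trophectoderm (IT) and the part of trophectoderm alone (TE). The NT-D oocyte library came from in vitro matured recipient oocytes, labelled Duroc but taken from hybrid sows according to the study's methods. It stood here for the oocyte stage of both clone groups. Each library pooled several oocytes or embryos. The clones were all male and the IV-D embryos of mixed sex, each clone group rests on 1 donor cell line, and breed, donor animal and group cannot be told apart. Culture in vitro and cloning also cannot be told apart, because no fertilized embryo was cultured.

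A C2H2 zinc finger is a short protein loop in which 2 cysteines and 2 histidines hold a zinc ion, and arrays of such fingers read DNA bases. Many ZNF proteins also carry a KRAB box, which recruits TRIM28 and, through it, SETDB1 and heterochromatin proteins to silence chromatin, in early embryos mainly at transposable elements and imprinted genes. Other members have no KRAB box and act as transcription factors, chromatin partners, RNA-binding proteins or ribosome assembly factors. Pig embryos take over transcription from the maternal store during the 4-cell and 8-cell stages, so that a level in an early stage reflects maternal RNA and a rise thereafter mostly new transcripts. In pooled embryos, less RNA per cell and fewer cells cannot be told apart.

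The coding sequence of 1 finger is printed for 4 members that mark the main patterns described here, the most abundant member (ZNF146), a member high from the oocyte to the 2-cell embryo (ZNF567), a member with a 4-cell peak in all 3 groups (ZNF622) and a member whose peak differed between groups (ZNF639). Sequences were read from the Sscrofa11.1 assembly by RefSeq coding annotation, 5′ to 3′ on the strand of the gene, and the capitals mark the codons of the zinc-binding cysteines and histidines.
ZNF146 (chr6:45598325-45598387, plus strand): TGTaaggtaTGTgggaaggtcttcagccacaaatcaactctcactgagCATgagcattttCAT
ZNF567 (chr6:45711413-45711475, minus strand): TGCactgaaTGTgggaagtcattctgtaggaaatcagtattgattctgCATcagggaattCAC
ZNF622 (chr16:5714294-5714362, minus strand): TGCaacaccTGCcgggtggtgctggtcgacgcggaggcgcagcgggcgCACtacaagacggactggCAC
ZNF639 (chr13:117382854-117382919, plus strand): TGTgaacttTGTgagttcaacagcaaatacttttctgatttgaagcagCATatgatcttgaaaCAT
All 4 stretches lie in coding exons. The fingers of ZNF146 and ZNF567 have 3 residues between the histidines, ZNF639 has 4, and ZNF622, a cytoplasmic factor that matures the large ribosomal subunit, has 5.

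Library depth, recovered from the whole-fragment steps in the FPKM values, ranged from 14952784 to 22991067 fragments, with a median of 18896560. At these depths 3 fragments on 1 kilobase of gene correspond to 0.130 to 0.201 FPKM. Since each condition of the table was 1 library, the spread between replicates could not be taken into account, no p-value between conditions is given, and a difference is described by a fold rule, a change of more than 1 in log2(FPKM + 1) with at least 1 FPKM in one of the libraries compared. Folds of low genes are understated on this scale. The summed FPKM of 8 oocyte markers (of 10 listed, among them OOEP, ZP4 and BMP15, none at 0 at these stages) was 498 in IV-D 4-cell embryos against 1612 in NT-D and 1529.6 in NT-LW, and 21.5 against 195 and 243 in 8-cell embryos. In morulae it was 8.33, 190.2 and 30.9. The 5 fibroblast markers in the table (of 12 listed) summed to 3.64 FPKM in IV-D, 117 in NT-D and 136 in NT-LW 4-cell embryos, with 1 of the 5 at 0 fragments in the IV-D library. In 1-cell embryos these markers summed to 58.6 FPKM in IV-D, which had no donor cell, 86.9 in NT-D and 88.8 in NT-LW. The IV-D 1-cell library thus differed from the IV-D oocyte (1.35 FPKM) and 2-cell embryo (2.25 FPKM). The 3 cumulus cell markers in the table (of 9 listed) summed to 196 FPKM in the NT-LW morula, against 30.4 in IV-D and 23.4 in NT-D. The 6 trophectoderm markers in the table (of 8 listed) summed to 1410.1 FPKM in the IV-D IT library and 1339 in the TE library, and the 3 inner cell mass markers (of 6 listed) to 59.1 and 21.5. The part these cells and leftover transcripts have in the member values was not tested.

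ZNF transcripts were of modest abundance. The median of the members' highest levels was 13.1 FPKM, against 27.7 FPKM over all genes of the table. A level of 10 FPKM was reached by 71 members and one of 100 FPKM by 4, ZNF146, ZNF207, ZNF639 and ZNF648. In all 23 libraries 35 members stayed at or above 1 FPKM, 30.7% of members, compared with 44.4% of all genes, and 14 members had 0 fragments in some library. The number of members at or above 1 FPKM was 78 in the IV-D oocyte (68.4%, against 71.6% of all genes), 68 in the 2-cell embryo (59.6% against 68.9%), 98 in the 4-cell embryo (86.0% against 82.0%) and 75 in TE (65.8% against 75.3%). In NT-D it went from 82 in the oocyte (71.9% against 78.0%) to 75 in the 2-cell embryo (65.8% against 74.0%) and up to 107 in the morula (93.9% against 89.9%). In NT-LW it went from 85 in the 2-cell embryo (74.6% against 80.2%) to a highest count of 103 in the 8-cell embryo (90.4% against 83.1%). The count was highest at the 4-cell stage in IV-D and in the morula in NT-D, which were also the stages with the highest share over all genes, and at the 8-cell stage in NT-LW, where the share over all genes was highest in the 4-cell embryo (83.9%). The summed FPKM of all members was highest at the 8-cell stage in each group, at 1445 in IV-D, 1622 in NT-D and 1640 in NT-LW. A single gene, ZNF146, gave 385, 321 and 313 FPKM of these sums. The IV-D sum at the 4-cell stage was 1207, and the IV-D member median was higher there (3.89 FPKM) than at the 8-cell stage (3.37 FPKM).

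**Figure D1:**
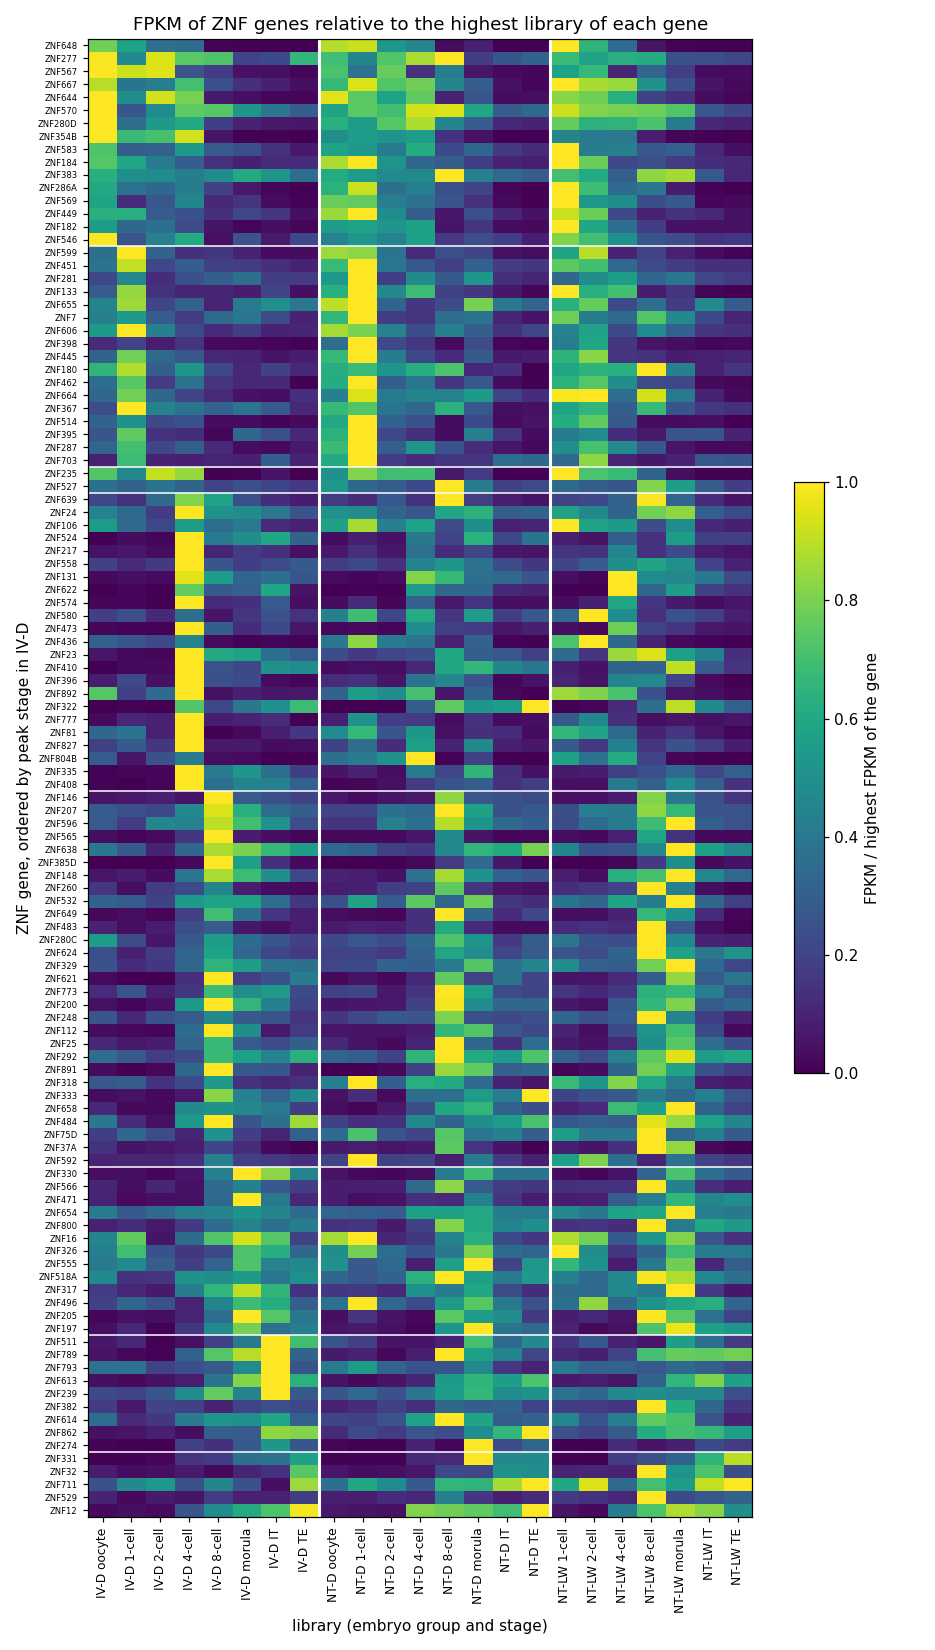
FPKM of each of the 114 ZNF genes (rows, ordered by peak stage in IV-D, with white lines between stages) in each of the 23 libraries (columns, by embryo group), as a share of the gene's highest library from 0 (dark) to 1 (bright). Bright cells step down from the oocyte to TE in IV-D, and rows such as ZNF639 and ZNF410, brightest in 4-cell embryos among the IV-D columns, are bright in 8-cell embryos or morulae among the clone columns.

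For each member the peak stage of a group was the stage with the highest FPKM. In IV-D, 16 of 114 members peaked in the oocyte (14.0%, against 9.28% of all genes with at least 1 FPKM in the group), 17 in the 1-cell embryo (14.9% against 16.4%), 2 in the 2-cell embryo (1.75% against 6.28%), 23 in the 4-cell embryo (20.2% against 14.6%) and 29 in the 8-cell embryo (25.4% against 17.4%). The morula was the peak of 13 (11.4% against 10.5%), IT of 9 (7.89% against 12.4%) and TE of 5 (4.39% against 13.1%). The 4-cell and 8-cell stages together held 52 of 114 peaks (45.6%, against 32.0% of all genes). With median-ratio scaling between libraries, the IV-D 8-cell stage held 18 peaks and not 29. Peaks were often narrow in height. The median ratio of the peak to the next highest stage was 1.45 in IV-D, 1.46 in NT-D and 1.34 in NT-LW, and 56 of 114 peaks in IV-D stood at least 1.5 times above the next stage.

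Among the members with an oocyte peak in IV-D, the highest was ZNF648, which lies at chr9:123505789-123706692. From oocyte to TE its IV-D levels were 204, 150.1, 95.0, 91.8, 2.35, 1.52, 0.813 and 0.316 FPKM. The level stayed high through the 4-cell embryo and was nearly gone from the 8-cell embryo on, a fall by 4.79 in log2(FPKM + 1), the largest fall of any member at that step. ZNF567 (chr6:45709663-45738030) had 87.0, 80.3, 83.0, 22.3, 15.6, 4.26, 3.51 and 1.48 FPKM in the same order. It fell at the preceding step, by 1.85 between the 2-cell and the 4-cell embryo. ZNF277 differed from both, with 94.8, 45.9, 90.5, 71.2, 68.9, 19.2, 21.7 and 63.4 FPKM, high in the oocyte, low in the morula and high again in TE. ZNF644, a partner of the histone methyltransferases EHMT1 and EHMT2, was the member whose peak lay in the oocyte in all 3 groups, at 35.2 FPKM in the IV-D and 33.6 in the recipient oocyte.

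The IV-D 1-cell embryo was the peak of ZNF599 (28.5 FPKM), of ZNF451, a SUMO ligase (23.7 FPKM), and of ZNF281, a transcription factor that binds GC-rich promoters (18.2 FPKM). From the oocyte to the 1-cell embryo 9 of 82 members were higher and 16 lower, where 21.4% of all genes passed the rule (13.7% higher and 7.64% lower), and median-ratio scaling gave 7 higher and 20 lower. ZNF451 then dropped to 5.61 FPKM in the 2-cell embryo. Of the 80 members tested between the 1-cell and 2-cell embryo, 5 were higher and 20 lower, where 31.2% of all genes passed the rule (6.59% higher and 24.6% lower). This direction depended on scaling, since median-ratio scaling gave 17 higher and 11 lower. The largest falls were those of ZNF16 (-2.38 in log2(FPKM + 1)), ZNF133 (-2.13) and ZNF451 (-1.90), and the largest rises those of ZNF260 (1.67), ZNF596 (1.33) and ZNF382 (1.22). ZNF235 was the most abundant of the 2 members with a 2-cell peak, at 8.44 FPKM.

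After the oocyte, the 4-cell embryo was the stage at which the largest number of members first passed 1 FPKM. In IV-D 21 members did so there (18.4%, against 9.18% of all genes), compared with 8 in the 8-cell embryo (7.02% against 7.66%). In 4-cell clones 16 members did so in NT-D (14.0% against 5.88%) and 11 in NT-LW (9.65% against 6.25%). The 8-cell counts of the clones were 8 in NT-D (7.02% against 5.25%) and 9 in NT-LW (7.89% against 4.60%). Between the IV-D 2-cell and 4-cell embryo, 43 of 100 members tested were higher and 2 lower, where 46.6% of all genes passed the rule (34.4% higher and 12.3% lower). The member median was 0.76 in log2(FPKM + 1), against 0.46 for all genes. Median-ratio scaling shifted the median of all genes to -0.20 and gave 27 higher and 15 lower among members.

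The largest rise at this step was that of ZNF622 (chr16:5699740-5714824). Its IV-D levels from oocyte to TE were 0.113, 0.435, 0.0209, 24.6, 9.08, 9.90, 19.3 and 1.70 FPKM, the 2-cell value resting on 1 fragment and the 4-cell value on 812. In NT-D it had 0.0531 FPKM in the 2-cell and 17.9 in the 4-cell embryo, and in NT-LW 0.0950 and 32.5. ZNF622 was thus near absent before the 4-cell stage and peaked there in all 3 groups. ZNF217, a transcription factor found with the CtBP and LSD1 co-repressors (chr17:54605939-54648868), had 1.43, 1.86, 0.984, 29.3, 3.04, 5.13, 4.07 and 1.36 FPKM in IV-D. Its 4-cell level stood apart from all other stages, and its 4-cell peak was lower in the clones, at 10.8 FPKM in NT-D and 13.4 in NT-LW. ZNF524, ZNF574, ZNF131, a BTB zinc finger protein, and ZNF473, which takes part in histone mRNA processing, rose by 4.32, 4.06, 3.89 and 3.86 in log2(FPKM + 1). ZNF473 was named after its value was seen. On the opposite strand ZNF524 overlaps FIZ1, ZNF574 overlaps GRIK5, ZNF473 overlaps VRK3 and ZNF410 overlaps FAM161B. Without strand in the counting, reads from any shared exon stretch cannot be told apart. Of the 95 members with a position, 24 overlapped another gene, among them ZNF511, ZNF566 and ZNF23. Overlap was found on whole genes, and exons were not compared.

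ZNF639, a transcriptional regulator also known as ZASC1 (chr13:117370496-117384046), was the most abundant member with a 4-cell peak in IV-D. Its IV-D levels were 34.9, 24.0, 57.2, 133, 94.8, 40.1, 21.5 and 12.8 FPKM from oocyte to TE. NT-D embryos had 28.6, 21.0, 45.7, 24.4, 165, 31.4, 13.7 and 9.45 FPKM, and NT-LW embryos from the 1-cell stage on 33.6, 35.9, 50.3, 164, 53.5, 21.1 and 8.86 FPKM. The IV-D level rose at the 4-cell stage and had begun to fall at the 8-cell stage, whereas in both clone groups the high value appeared in the 8-cell library. ZNF24 and ZNF106, an RNA-binding protein, had their IV-D peaks in the 4-cell embryo as well, at 39.5 and 34.6 FPKM.

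**Figure D2:**
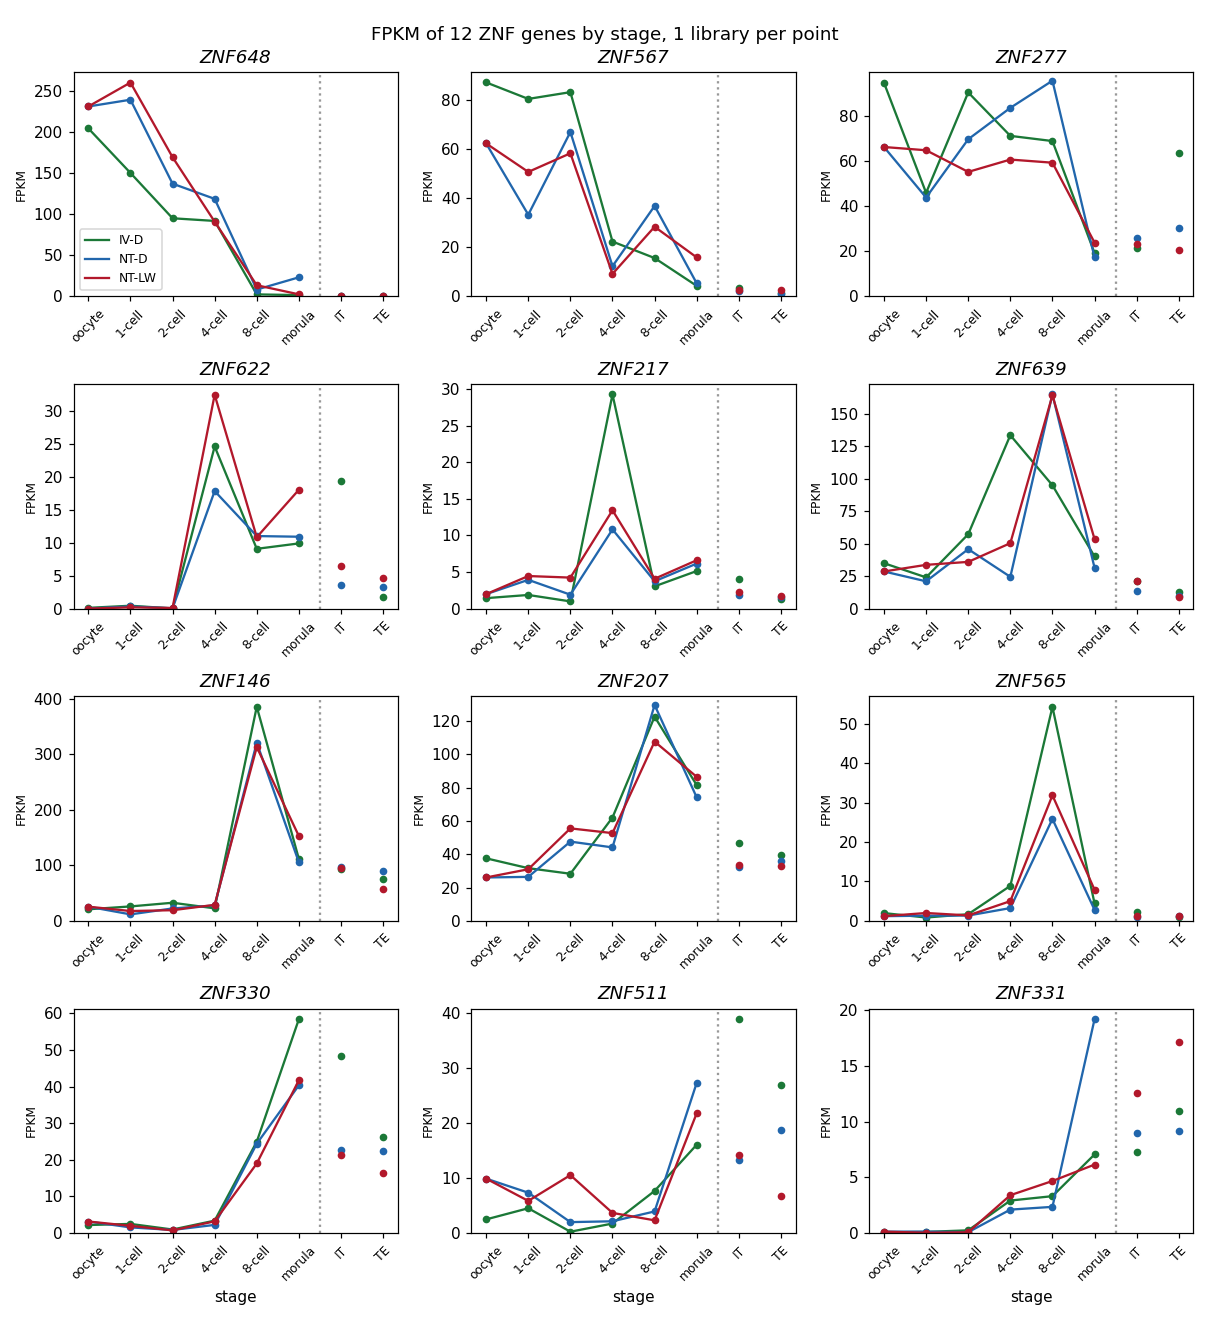
FPKM (linear axis) against stage for 12 ZNF genes, 1 colour per embryo group and 1 library per point, with IT and TE as single points and the in vitro matured oocyte drawn for both clone groups. ZNF648 leaves after the 4-cell embryo, ZNF622 and ZNF217 have a sharp 4-cell point in every group, ZNF639 has its highest point in the 4-cell embryo of IV-D and in the 8-cell embryo of both clone groups, and ZNF146 has its highest point in the 8-cell embryo of all 3 groups.

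At the 8-cell stage ZNF146, a protein made up almost wholly of fingers (chr6:45520885-45603213), was the most abundant ZNF transcript of the series. Its IV-D levels were 20.8, 25.9, 32.5, 22.5, 385, 111, 93.9 and 76.2 FPKM. The 8-cell values of 321 FPKM in NT-D and 313 FPKM in NT-LW were also the highest of their groups. ZNF565, on the opposite strand (chr6:45543071-45576966), lies wholly inside the ZNF146 gene, and the 2 genes share their 8-cell peak: ZNF565 went from 8.89 FPKM in the IV-D 4-cell embryo to 54.4 in the 8-cell embryo and 4.43 in the morula. The overlap was found on whole genes and not on exons, and the printed ZNF146 finger lies outside ZNF565. Reads from any shared exon stretch cannot be told apart without strand, so the ZNF565 values are uncertain. ZNF207, which loads BUB3 on kinetochores and spindle microtubules, had 37.6, 31.7, 28.3, 62.1, 123, 81.6, 46.6 and 39.4 FPKM in IV-D and peaked at the 8-cell stage in all 3 groups. ZNF596 followed in abundance, with 67.1 FPKM at its IV-D peak.

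Between the IV-D 4-cell and 8-cell embryo, 22 of 109 members tested were higher and 27 lower, where 63.2% of all genes passed the rule (35.0% higher and 28.1% lower). The member median was 0.04, against 0.25 for all genes, and median-ratio scaling gave 12 higher and 38 lower. The largest rises were those of ZNF385D (4.27), ZNF146 (4.04) and ZNF330, a nucleolar protein (2.56). After ZNF648 the largest falls were those of ZNF354B (-3.38) and ZNF235 (-3.09).

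At the IV-D steps after the 8-cell stage most members did not pass the rule, and without scaling between libraries more were lower than higher. From the IV-D 8-cell embryo to the morula 6 of 100 members were higher and 12 lower (25.9% of all genes passed the rule, 12.3% higher and 13.6% lower). ZNF655 (1.54), ZNF471 (1.35) and ZNF326, an RNA-binding component of the DBIRD complex (1.31), rose most, and ZNF565 (-3.35), ZNF260 (-2.30) and ZNF621 (-1.83) fell most. ZNF330 had its IV-D peak in the morula, at 58.4 FPKM, after 25.0 at the 8-cell stage, and it peaked in the morula in both clone groups too (40.4 and 41.8 FPKM).

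From the morula to TE, 3 of 98 members were higher and 28 lower in IV-D, where 36.6% of all genes passed the rule (12% higher and 24.6% lower). In NT-D 0 of 108 were higher and 52 lower (47.1% of all genes, 8.66% higher and 38.5% lower), and in NT-LW 1 of 99 was higher and 60 lower (49.1%, 8.79% higher and 40.3% lower). Median-ratio scaling gave 9 higher and 18 lower in IV-D, 6 higher and 20 lower in NT-D and 5 higher and 33 lower in NT-LW. Towards IT the counts were 1 higher and 8 lower of 96 in IV-D (15.3% of all genes, 7.7% higher and 7.59% lower), 0 and 45 of 108 in NT-D (44.4%, 9.31% higher and 35.1% lower) and 1 and 46 of 99 in NT-LW (37.2%, 9.1% higher and 28.1% lower). Median-ratio scaling gave 7 higher and 4 lower, 2 higher and 14 lower and 2 higher and 18 lower, so that the IV-D direction turned with the scaling. ZNF511, whose IV-D peak was in IT at 39.0 FPKM, was the member that rose towards IT (1.22), and ZNF385D (-1.79), ZNF106 (-1.60) and ZNF471 (-1.15) fell most. ZNF711, an X-linked partner of the demethylase PHF8, was the member that peaked in TE in all 3 groups, at 4.96, 5.80 and 5.80 FPKM. ZNF331, a KRAB gene imprinted in humans, and ZNF32 had their IV-D peaks in TE at 10.9 and 6.87 FPKM.

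In the clone groups the same count gave another order of stages. In NT-D, where 113 members reached 1 FPKM, 36 peaked at the 8-cell stage (31.9%, against 14.9% of all genes), 31 at the 1-cell stage (27.4% against 23%), 20 in the morula (17.7% against 21.3%) and 12 at the 4-cell stage (10.6% against 10.3%). The oocyte held 4, TE 8, and the 2-cell stage and IT 1 each. In NT-LW, where 111 members reached 1 FPKM, 29 peaked at the 8-cell stage (26.1% against 12.1%) and 27 in the morula (24.3% against 22.3%). The 1-cell embryo was the peak of 21 (18.9% against 14.1%), the 2-cell embryo of 13 (11.7% against 14.9%) and the 4-cell embryo of 9 (8.11% against 9.56%). The oocyte held 7 (6.31% against 8.47%), TE 3 (2.70% against 8.04%) and IT 2 (1.80% against 10.4%). In the clones the 8-cell stage was thus the most frequent peak, as in IV-D, and the 4-cell stage held fewer peaks than the 23 of IV-D. Median-ratio scaling placed 20 NT-D peaks at the 4-cell stage.

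**Figure D3:**
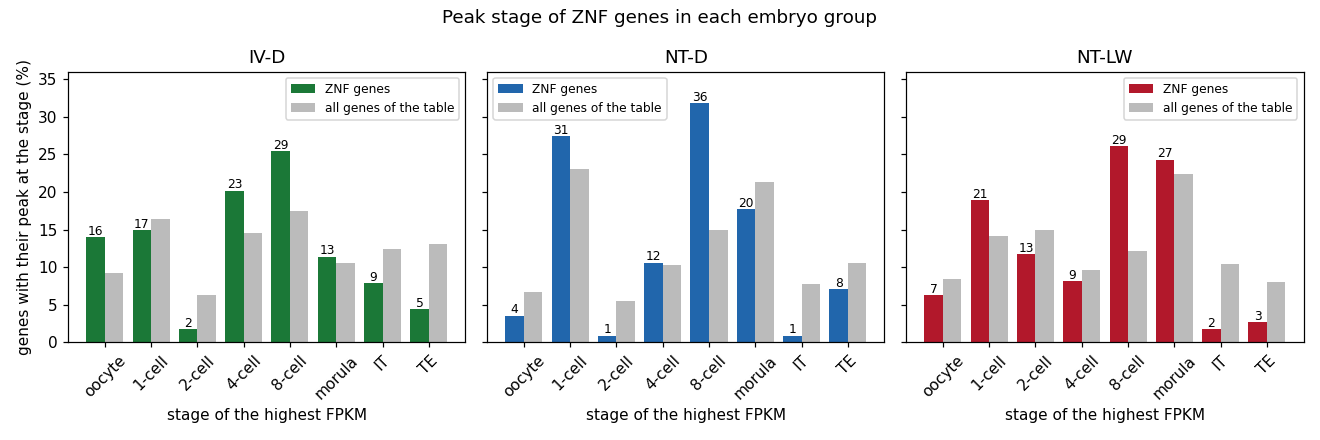
Percent of ZNF genes (coloured bars, with the number of genes above each) and of all genes of the table (grey bars) with their highest FPKM at each stage, 1 panel per embryo group, axis from 0. The 4-cell bars of the ZNF genes are 20.2% in IV-D, 10.6% in NT-D and 8.11% in NT-LW, and the 8-cell bars 25.4%, 31.9% and 26.1%.

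Member by member, 52 of 113 had the same peak stage in NT-D as in IV-D (46.0%, against 45.1% of all genes), 33 a later one (29.2% against 24.0%), 25 an earlier one (22.1% against 24.6%), and 3 exchanged IT and TE. In NT-LW 36 of 111 kept the stage (32.4%, the same share as over all genes), 46 were later (41.4% against 32.0%) and 28 earlier (25.2% against 28.2%). The shares of members with an unchanged peak were thus at the level of the table as a whole. Since both clone groups are set against the same IV-D libraries and share their oocyte library, these counts are not independent of each other.

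A set of 30 members peaked at the same stage in all 3 groups. The same count over all genes was not made, so whether 30 is more than the table gives is not known. These were ZNF644 in the oocyte, ZNF133, ZNF451 and ZNF7 at the 1-cell stage, ZNF131, ZNF217, ZNF473, ZNF574, ZNF622, ZNF804B and ZNF827 at the 4-cell stage, and ZNF711 in TE. The 8-cell stage held ZNF146, ZNF207, ZNF248, ZNF260, ZNF280C, ZNF37A, ZNF483, ZNF565, ZNF624, ZNF649, ZNF75D and ZNF891, and the morula ZNF197, ZNF317, ZNF330, ZNF471, ZNF555 and ZNF654. Of the 23 members with an IV-D 4-cell peak, ZNF23, ZNF396, ZNF558 and ZNF639 had an 8-cell peak in both clone groups, and ZNF24, ZNF410 and ZNF524 a morula peak in both. ZNF24 had 17.5, 13.5, 6.97, 39.5, 20.4, 19.1, 15.7 and 10.1 FPKM in IV-D, 20.04, 19.5, 12.5, 10.4, 23.3, 25.4, 11.9 and 12.6 in NT-D and, from the 1-cell stage, 22.8, 18.4, 12.6, 31.1, 32.9, 11.8 and 8.81 in NT-LW. ZNF410, which activates transcription of the chromatin remodeller CHD4, had 0.0906, 0.256, 0.303, 12.8, 3.27, 2.77, 6.48 and 6.20 FPKM in IV-D, 0.361, 0.598, 0.470, 1.41, 7.71, 8.51, 5.84 and 5.03 in NT-D and 1.12, 0.630, 4.08, 4.11, 11.6, 3.70 and 1.99 in NT-LW. The IV-D level of ZNF410 was highest in the 4-cell library and the clone levels were highest in the morula. Its target CHD4 stood at 4.76 FPKM in IV-D, 4.29 in NT-D and 5.19 in NT-LW 4-cell embryos.

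Among the members with an IV-D oocyte peak, ZNF182, ZNF184, ZNF286A, ZNF449, ZNF648 and ZNF667 peaked at the 1-cell stage in both clone groups, 1 stage after the recipient oocyte. A group of 14 members peaked at the 1-cell stage in IV-D and NT-D. Of these, ZNF287, ZNF398, ZNF445, ZNF462, ZNF514, ZNF664 and ZNF703 had their NT-LW peak at the 2-cell stage. ZNF445, a KRAB protein that helps maintain imprints, had 8.88 FPKM in the IV-D, 11.3 in the NT-D and 7.27 in the NT-LW 1-cell embryo, and 3.87, 4.76 and 9.28 FPKM in the 2-cell embryo.

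The steps of cloned embryos differed in count from those of IV-D. From the recipient oocyte to the 1-cell clone 7 of 87 members were higher and 1 lower in NT-D (8.67% of all genes passed the rule, 7.11% higher and 1.56% lower) and 2 of 88 higher and 0 lower in NT-LW (8.51%, 7.29% higher and 1.22% lower), and median-ratio scaling gave 2 higher and 2 lower and 0 higher and 1 lower. At the first cleavage of the clones 2 of 86 were higher and 22 lower in NT-D (29.0%, 2.45% higher and 26.5% lower), which became 9 higher and 8 lower under median-ratio scaling, and 1 of 90 higher and 1 lower in NT-LW (7.14%, 2.83% higher and 4.31% lower), which became 1 higher and 7 lower under the sum. From there to the 4-cell embryo, 22 of 99 members were higher and 3 lower in NT-D, where 25.7% of all genes passed the rule (17.3% higher and 8.36% lower), and median-ratio scaling gave 18 higher and 6 lower. In NT-LW 17 of 102 were higher and 20 lower (36.4% of all genes, 16.5% higher and 19.9% lower). Between the 4-cell and the 8-cell embryo, 39 of 107 were higher and 21 lower in NT-D (60.0% of all genes, 31.4% higher and 28.7% lower), and median-ratio scaling gave 28 higher and 26 lower and rescaling to a sum of 1000000 gave 29 higher and 29 lower. In NT-LW 32 of 108 were higher and 15 lower (53.7% of all genes, 28.1% higher and 25.6% lower), with 27 higher and 20 lower under median-ratio scaling and 31 higher and 24 lower under the sum. In IV-D members rose in larger number at the first of these steps (43 against 22), in NT-D and NT-LW at the second (39 against 22 and 32 against 17). From the 8-cell embryo to the morula, 18 of 109 were higher and 18 lower in NT-D (43.6% of all genes, 31.6% higher and 12% lower), and 9 higher and 24 lower of 106 in NT-LW (34.9%, 22.4% higher and 12.4% lower). Median-ratio scaling gave 9 higher and 31 lower in NT-D and 3 higher and 28 lower in NT-LW, and the sum gave 17 higher and 14 lower in NT-LW.

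Set against IV-D at the same stage, the oocytes differed in 9 of 83 members, 8 higher in the in vitro matured NT-D oocyte and 1 lower (14.8% of all genes passed the rule, 13.3% higher and 1.51% lower). The direction depended on scaling, with 4 higher and 8 lower under median-ratio scaling and 11 higher and 5 lower under the sum. ZNF511 was at 2.49 FPKM in the IV-D and 9.92 in the NT-D oocyte, ZNF398 at 5.61 and 17.0, and ZNF281 at 8.48 and 21.0. ZNF280C was the lower member, at 9.23 and 3.68 FPKM. At the 1-cell stage 17 of 87 members were higher and 2 lower in NT-D (21.9% of all genes, 18.5% higher and 3.44% lower), and 26 of 87 higher and 1 lower in NT-LW (24.9%, 20.8% higher and 4.12% lower). In 2-cell embryos the counts were 5 higher and 0 lower of 75 in NT-D (8.38%, 6.48% higher and 1.9% lower), and 32 higher and 0 lower of 85 in NT-LW (38.2%, 34.7% higher and 3.51% lower). Median-ratio scaling gave 7 higher and 2 lower in NT-D and 11 higher and 5 lower in NT-LW at the 1-cell stage, and 5 higher and 1 lower in NT-D and 9 higher and 10 lower in NT-LW at the 2-cell stage. The excess of higher members in the NT-LW 2-cell library was therefore not seen once the median of all genes was taken as the reference.

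At the 4-cell stage members were more often lower than higher in the clones. In NT-D 5 of 103 members tested were higher and 17 lower, where 22.9% of all genes passed the rule (9.74% higher and 13.2% lower), and median-ratio scaling gave 7 higher and 14 lower. In NT-LW 5 of 103 were higher and 10 lower (20.2% of all genes, 10.8% higher and 9.43% lower). Without any threshold, 49 of 114 members (43.0%, against 49.5% of all genes) were above their IV-D level in NT-D and 46 (40.4% against 52.5%) in NT-LW. The lowest members in NT-D were ZNF410 (-2.52 in log2(FPKM + 1), 12.8 against 1.41 FPKM), ZNF639 (-2.40) and ZNF24 (-1.83), and in NT-LW ZNF322 (-1.97), ZNF524 (-1.66) and ZNF24 (-1.57). ZNF566 was higher in both, with 2.97 FPKM in IV-D, 21.5 in NT-D and 9.22 in NT-LW, and so was ZNF133, a KRAB gene that stood at 1.83, 12 and 12.1 FPKM. ZNF804B (1.04) completed the highest members in NT-D and ZNF281 (1.11) those in NT-LW. In these libraries the oocyte and fibroblast markers summed higher in the clones, as given above, and their part in the member values was not tested.

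At the 8-cell stage the count ran the other way. In NT-D 19 of 100 members were higher and 3 lower, where 28.3% of all genes passed the rule (10.8% higher and 17.4% lower). In NT-LW 21 of 106 were higher and 4 lower (33.6% of all genes, 16.3% higher and 17.3% lower). The members had a median difference of 0.34 (NT-D) and 0.37 (NT-LW), against -0.12 and -0.02 for all genes. Without a threshold 75 of 114 members (65.8%) were above the IV-D level in each clone group, against 46.3% and 51.1% of all genes. Rescaling every library to the same sum gave 11 higher and 10 lower in NT-D, so the direction there depended on this choice, and 19 higher and 8 lower in NT-LW.

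ZNF382, a KRAB repressor, had 2.65 FPKM in the IV-D, 9.21 in the NT-D and 27.7 in the NT-LW 8-cell embryo. ZNF527 had 2.09, 10.2 and 8.29 FPKM, and ZNF529 4.41, 10.8 and 24.7. In each of these 3 genes both clone libraries were above the IV-D library. ZNF32 had the largest difference from IV-D in NT-LW (3.12), with 0.184 FPKM in IV-D, 2.06 in NT-D and 9.27 in NT-LW. ZNF648, the oocyte-peaked member, was still at 8.25 FPKM in NT-D and 13.5 in NT-LW, against 2.35 in IV-D. ZNF37A was at 1.32, 4.70 and 6.29 FPKM, low in IV-D and higher in both clone libraries.

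ZNF385D was the lowest member in both clone groups. Its IV-D levels were 0, 0.0893, 0.0645, 0.654, 30.9, 17.4, 4.33 and 0.760 FPKM, and the 8-cell value of 30.9 stood against 5.38 in NT-D and 5.10 in NT-LW. In the clones it was higher in the morula, at 10.5 and 15.4 FPKM. ZNF565 was also lower in NT-D (-1.04), and ZNF621 (-1.41) and ZNF511 (-1.38) in NT-LW.

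**Figure D4:**
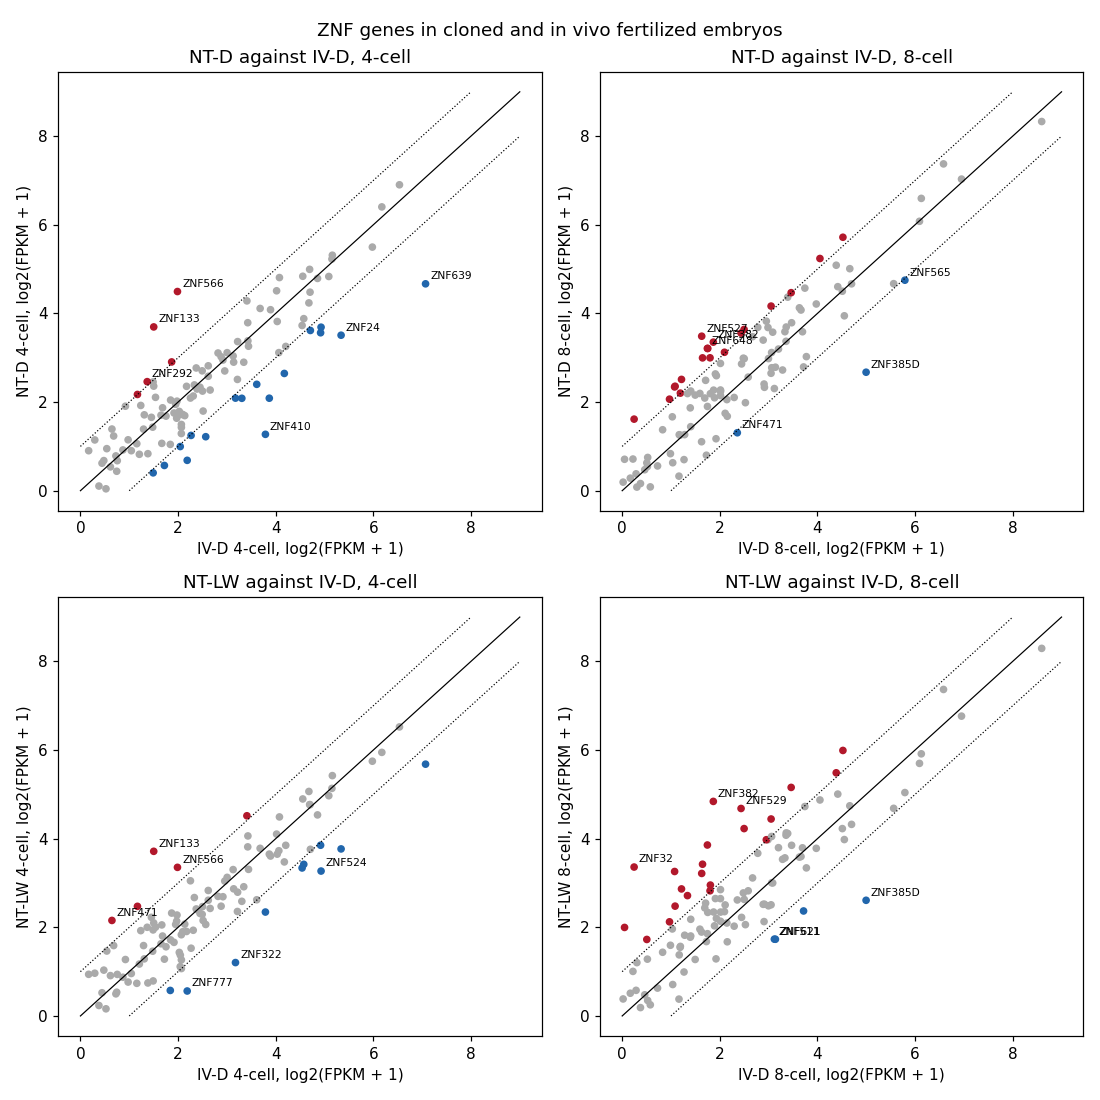
log2(FPKM + 1) of each ZNF gene in cloned embryos (y axis) against IV-D embryos (x axis) in 4-cell and 8-cell embryos, 1 panel per clone group and stage and 1 point per gene, with equality as a solid line and the limits of the fold rule as dotted lines. Coloured points passed the rule (red higher, blue lower in clones), with more blue than red points among 4-cell embryos (17 and 5 in NT-D, 10 and 5 in NT-LW) and more red than blue among 8-cell embryos (19 and 3, 21 and 4).

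In morulae 17 of 108 members were higher and 1 lower in NT-D (22.6% of all genes, 18.7% higher and 3.88% lower), and 16 of 101 higher and 0 lower in NT-LW (15.7%, 11.6% higher and 4.07% lower). The highest in NT-D were ZNF648 (1.52 FPKM in IV-D against 23.1), ZNF436 (0.308 against 10.8) and ZNF398 (1.03 against 10.8). The NT-LW morula had 2.44, 0.675 and 1.78 FPKM of these. The summed oocyte markers in the NT-D morula were above those of the other morulae, as given above, and their part in these values was not tested. In NT-LW the highest were ZNF260 (2.21), ZNF37A (1.79) and ZNF280D (1.78), and ZNF471 was the lower member in NT-D (-1.05). In IT 4 of 91 members were higher and 12 lower in NT-D (24.9% of all genes, 9.47% higher and 15.4% lower), and 4 of 90 higher and 13 lower in NT-LW (22.4%, 8.7% higher and 13.7% lower). In TE 0 of 83 were higher and 2 lower in NT-D (7.36%, 3.13% higher and 4.23% lower), and 4 of 81 higher and 9 lower in NT-LW (16.5%, 6.26% higher and 10.2% lower).

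The clone groups differed from each other in few members in IT and in 4-cell embryos. In IT 0 of 89 members were higher and 2 lower in NT-D than in NT-LW (5.23% of all genes passed the rule, 2.7% higher and 2.54% lower), and in 4-cell embryos 1 of 101 was higher and 3 lower (4.39%, 0.972% higher and 3.42% lower). In 1-cell embryos 5 of 89 were higher and 0 lower (6.39%, 4.69% higher and 1.7% lower), in 2-cell embryos 0 of 86 higher and 15 lower (16.1%, 0.647% higher and 15.5% lower), and in 8-cell embryos 1 of 103 higher and 7 lower (6.15%, 2.15% higher and 3.99% lower). More members differed in morulae, 11 of 108 higher and 7 lower (21.2%, 14.1% higher and 7.02% lower), and in TE, 11 of 85 higher and 5 lower (11.4%, 6.84% higher and 4.6% lower). Rescaling to the same sum turned the morula count to 12 higher and 13 lower, the 1-cell count to 6 higher and 4 lower and the TE count to 18 higher and 4 lower, and median-ratio scaling the 4-cell count to 2 higher and 1 lower.

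By role, the members fell into lists of known function that were chosen with earlier results of these data known. Of 7 members that act in RNA handling, ribosome assembly, SUMO or ubiquitin transfer or the spindle (of 14 listed), ZNF106, ZNF207, ZNF326, ZNF330, ZNF451, ZNF622 and ZNF638, 5 were higher and 0 lower from the IV-D 2-cell to the 4-cell embryo, where 34.4% of all genes were higher and 12.3% lower. None of the 7 passed the rule between clones and IV-D at the 4-cell stage (22.9% of all genes in NT-D and 20.2% in NT-LW) or the 8-cell stage (28.3% and 33.6%). Of 16 transcription or chromatin factors without a KRAB box (of 36 listed) 13 were tested at the same step, of which 8 were higher and 0 lower. In 4-cell clones 1 of these was higher and 3 lower in NT-D (9.74% and 13.2% of all genes), and 1 higher and 4 lower in NT-LW (10.8% and 9.43%). Of 5 KRAB proteins of known targets (of 10 listed), ZNF274, ZNF37A, ZNF382, ZNF445 and ZNF649, 4 were tested at the 8-cell stage and 2 were higher and 0 lower in each clone group, where 10.8% (NT-D) and 16.3% (NT-LW) of all genes were higher. Lists of this size allow no reading beyond these counts.

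The genes that KRAB proteins work through were also in the table, 20 of 28 listed. Between the IV-D 2-cell and 4-cell embryo 9 of 20 were higher and 1 lower (34.4% and 12.3% of all genes), and between the 4-cell and 8-cell embryo 5 and 5 (35.0% and 28.1%). TRIM28, the adaptor that KRAB boxes bind, had 1.32 FPKM in the IV-D 4-cell embryo, 9.53 in the 8-cell embryo and 13.0 in the morula. The corresponding NT-D values were 1.40, 3.72 and 15.1, and the NT-LW values 1.44, 4.35 and 7.16. SETDB1, the methyltransferase that TRIM28 recruits, went from 7.58 to 2.29 FPKM between the IV-D 4-cell and 8-cell embryo. In 8-cell embryos 1 of 19 of these genes was higher and 3 lower in NT-D than in IV-D (10.8% and 17.4% of all genes), and 2 higher and 2 lower in NT-LW (16.3% and 17.3%).

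A RefSeq protein was found for 93 members. A KRAB A-box was found in 28 by the first pattern searched, with 5 to 28 fingers (median 12). Another 60 had fingers and matched neither this pattern nor the SCAN pattern searched, with 1 to 34 fingers (median 8). Boxes that depart from these patterns would be missed. ZNF462 had the most fingers (34), before ZNF112 (28) and ZNF197 (22). In IV-D 12 of the 28 KRAB members (42.9%) peaked between the oocyte and the 2-cell stage and 3 (10.7%) in the 4-cell embryo, and of the 60 others 14 (23.3%) and 17 (28.3%), beside 31.9% and 14.6% of all genes. A second pattern, added after the first was seen to miss variants, raised the KRAB members to 45. Of these 15 (33.3%) peaked up to the 2-cell stage, 6 (13.3%) at the 4-cell and 12 at the 8-cell stage in IV-D, and among the 48 remaining members 13 (27.1%), 14 (29.2%) and 12. The first 2 of these KRAB shares lay near those of all genes. In NT-D 19 of the 45 KRAB members (42.2%) peaked in 8-cell and 2 in 4-cell embryos (14.9% and 10.3% of all genes), in NT-LW 16 (35.6%) and 1 (12.1% and 9.56%). Between the IV-D 2-cell and 4-cell embryo 15 of 38 KRAB members tested were higher and 2 lower (median 0.64), and of 43 others 21 and 0 (median 0.90), where 34.4% of all genes were higher and 12.3% lower (median 0.46).

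A position on Sscrofa11.1 was found for 95 members. Chromosome 6 held 25, chromosome 14 held 10 and chromosome 3 held 8. On the X chromosome lay 6 members, for which the mixed sex of IV-D and the male clones cannot be told apart from the groups. Members closer than 1 Mb on a chromosome formed 13 clusters of 38 members. Of 25 neighbouring pairs in clusters, 4 shared the IV-D peak stage (16%, against 16.6% of all 4465 member pairs), so neighbours did not share a peak more often than members at large.

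The largest cluster spans chr6:45520885-46468679 (0.948 Mb) and holds 10 members, in order ZNF146, ZNF565, ZNF567, ZNF382, ZNF529, ZNF260, ZNF566, ZNF383, ZNF527 and ZNF570. An 8-cell peak was seen for 3 of the 10 in IV-D, 9 in NT-D and 7 in NT-LW (17.4%, 14.9% and 12.1% of all genes). The shares over all ZNF members were 25.4%, 31.9% and 26.1%. Median-ratio scaling gave 3, 7 and 8 such peaks, and rescaling to the same sum 4, 7 and 7. At the 8-cell stage 8 of 10 were above the IV-D level in each clone group (46.3% of all genes in NT-D and 51.1% in NT-LW, and 65.8% of all ZNF members in each). By the fold rule 5 were higher and 1 lower in NT-D (10.8% and 17.4% of all genes) and 5 higher and 0 lower in NT-LW (16.3% and 17.3%). Rescaling to the same sum, under which the NT-D count over all members turned to 11 higher and 10 lower, gave 2 higher and 1 lower in this cluster in NT-D and 4 higher and 1 lower in NT-LW, and median-ratio scaling gave 6 and 0 and 5 and 0. These scalings of the cluster were added after seeing the data. The IV-D, NT-D and NT-LW levels at this stage were 19.9, 33.0 and 43.8 FPKM for ZNF260, 22.0, 51.7 and 62.6 for ZNF566 and 9.49, 19.6 and 16.4 for ZNF383. The ratio of the clone to the IV-D level ranged from 0.476 to 4.88 in NT-D and from 0.587 to 10.4 in NT-LW, with ZNF146 and ZNF565 as the 2 members below 1. Neighbouring ZNF genes often share related finger sequence, so reads of these 10 genes may be split between them with less certainty than elsewhere.

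**Figure D5:**
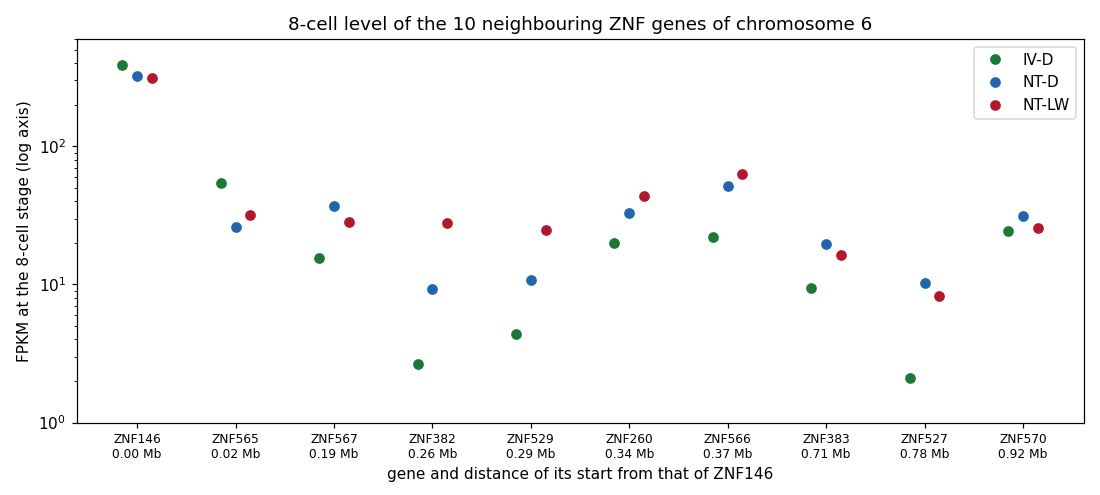
FPKM in 8-cell embryos (log axis) of the 10 neighbouring ZNF genes of the chromosome 6 cluster, in order along the chromosome with the distance of each start from that of ZNF146 in Mb, 1 point each for the IV-D, NT-D and NT-LW library. Apart from ZNF146 and ZNF565, both clone points lie above the IV-D point of the gene.

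RefSeq promoters, 250 bases before to 50 bases after the annotated start, were read for 93 members and for 19531 protein-coding genes, and 5 short motifs were searched on both strands. CCGGAA, the core of ETS-family sites, was in 26 member promoters (28.0%, against 17.8% of all), GGGCGG, the GC box, in 48 (51.6% against 50.6%), CCAAT in 28 (30.1% against 35.4%), TATAAA in 12 (12.9% against 10.9%) and TAATCC, a site of OTX-type homeodomains, in 3 (3.23% against 6.09%). The median number of CG pairs was 20 in members and 16 in all promoters, and the part of base composition in these shares was not tested. Among the 19 members with a promoter that first passed 1 FPKM at the IV-D 4-cell stage, 8 (42.1%) held CCGGAA, namely ZNF23, ZNF112, ZNF200, ZNF322, ZNF331, ZNF335, ZNF410 and ZNF484. The promoters of 3 of these are printed, with that of ZNF622, which holds none of the 5 motifs and rose most at that step. Capitals mark the motifs on either strand, and in ZNF322 a CCGGAA overlaps a GC box.
ZNF322 (chr7:21143355-21143654, minus strand): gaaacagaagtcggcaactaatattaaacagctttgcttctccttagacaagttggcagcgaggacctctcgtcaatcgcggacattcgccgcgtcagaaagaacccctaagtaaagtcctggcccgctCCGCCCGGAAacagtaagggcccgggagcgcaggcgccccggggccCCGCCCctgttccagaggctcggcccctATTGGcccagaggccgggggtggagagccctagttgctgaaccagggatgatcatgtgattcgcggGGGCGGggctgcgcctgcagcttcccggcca
ZNF410 (chr7:97197724-97198023, plus strand): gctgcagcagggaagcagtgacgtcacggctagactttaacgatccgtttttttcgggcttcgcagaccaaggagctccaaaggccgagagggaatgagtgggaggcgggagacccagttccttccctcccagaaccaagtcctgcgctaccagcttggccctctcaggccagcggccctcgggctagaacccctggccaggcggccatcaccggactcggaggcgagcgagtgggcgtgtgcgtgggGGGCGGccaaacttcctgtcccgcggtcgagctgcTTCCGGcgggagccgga
ZNF23 (chr6:14480734-14481033, minus strand): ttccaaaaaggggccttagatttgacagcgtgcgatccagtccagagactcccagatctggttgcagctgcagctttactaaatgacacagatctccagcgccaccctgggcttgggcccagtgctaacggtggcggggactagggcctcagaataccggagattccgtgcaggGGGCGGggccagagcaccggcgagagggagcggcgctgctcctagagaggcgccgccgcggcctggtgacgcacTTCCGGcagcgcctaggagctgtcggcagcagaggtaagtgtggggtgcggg
ZNF622 (chr16:5714775-5715074, minus strand): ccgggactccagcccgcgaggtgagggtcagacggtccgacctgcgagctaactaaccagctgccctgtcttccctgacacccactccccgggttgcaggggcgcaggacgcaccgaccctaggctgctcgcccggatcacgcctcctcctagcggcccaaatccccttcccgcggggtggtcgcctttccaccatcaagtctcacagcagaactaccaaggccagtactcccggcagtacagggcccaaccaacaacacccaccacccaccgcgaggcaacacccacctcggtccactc
The 4 genes had 0.0276, 0.303, 0.160 and 0.0209 FPKM in the IV-D 2-cell embryo, in the order printed, and 8.04, 12.8, 13.6 and 24.6 in the 4-cell embryo. In NT-D 4-cell embryos they had 3.25, 1.41, 3.25 and 17.9 FPKM, and in NT-LW 1.30, 4.08, 11.6 and 32.5. The 3 with CCGGAA were lower in both clone libraries than in IV-D, and ZNF622 was lower in NT-D and higher in NT-LW. Of all 114 members, 43.0% were above IV-D in NT-D 4-cell embryos and 40.4% in NT-LW (49.5% and 52.5% of all genes), so 4 printed genes allow no comparison by motif. ZNF410 and ZNF322 had already been named above among the lowest members of NT-D and NT-LW 4-cell embryos. Clone levels of the CCGGAA members not printed are not given here, and a link between motif and level was not tested.

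Other zinc finger families named by symbol were small. The IV-D 4-cell and 8-cell stages held the peaks of 10 of 16 ZBTB genes (62.5%), 4 of 9 ZFP genes, 4 of 7 ZSCAN and ZKSCAN genes and 5 of the 7 KLF genes with at least 1 FPKM in IV-D, beside 45.6% of ZNF genes and 32.0% of all genes. In NT-D the same stages held 42.5% of ZNF peaks, 4 of 16 ZBTB peaks and 25.2% of all peaks, and in NT-LW 34.2%, 6 of 16 and 21.7%.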

How the data were processed

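Values were the FPKM of 8603 genes in 23 libraries, made by the authors with SMART-Seq v4 amplification, HISAT2 2.0.4, the Sscrofa11.1 assembly, and HTSeq 0.9.1 gene counts, and deposited without rescaling between libraries. By its name the table is limited to differentially expressed genes, and the step that chose them is not given in the sources used here. Amplification before sequencing and counting without a stated strand setting can shift single genes and pairs of overlapping genes. Intervals and floors cover counting error only.

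Members and gene lists were chosen with earlier results of these data known. Members were the rows whose symbol starts with ZNF and a number. The peak stage was the highest FPKM of a group, for members with at least 1 FPKM in it. Comparisons (43 in all) used log2(FPKM + 1), a limit of 1 and a minimum of 1 FPKM, with the same count over all genes beside it, and no test, since each condition of the table was 1 library. Replicate libraries that the study's methods describe for some stages were not analysed here. Named genes were the 3 highest per IV-D peak stage, the 3 with the largest rise and fall per listed comparison with at least 5 FPKM in 1 library, members of the role lists with at least 10 FPKM, and ZNF37A; others were named after their values were seen. Whole fragments were recovered from the FPKM steps for 8603 of 8603 genes (100.0% of values within 0.01 fragments of a whole number), and the recovery was tested on simulated data. Markers, role lists and KRAB co-repressor genes were summed or counted the same way. Alternatives were median-ratio scaling, a common sum of 1000000, a pseudocount of 0.1, a minimum of 5 FPKM or none, and an exact binomial test on the recovered fragments of 2 libraries (Benjamini-Hochberg adjusted p under 0.005), which compares those libraries and not the conditions.

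Promoters, coding exons and positions came from the RefSeq annotation of Sscrofa11.1. A finger was 2 cysteines with 2 to 4 residues between them, 12 residues, and 2 histidines with 3 to 5 residues between them. Python 3.11.15, pandas 2.3.3, SciPy 1.17.1, pysam 0.24.0 and Biopython 1.88 were used.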

Additional observations from a re-analysis of the deposited data

Results flagged for a closer look

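Each of the following members passed the fold rule in opposite directions at the same step in IV-D and in a clone group, with values given as differences in log2(FPKM + 1). None of these differences between groups was tested, because each condition of the table was 1 library. Opposite changes were not counted over all genes, so how usual they are in the table is not known. From the oocyte to the 1-cell embryo ZNF892 changed by -1.51 in IV-D and by 1.17 in NT-LW. From the 2-cell to the 4-cell embryo ZNF511 changed by 1.13 in IV-D and -1.31 in NT-LW, and ZNF16 by 1.48 and -1.18. ZNF580 changed by 1.46 in IV-D and by -1.001 in NT-LW, just past the limit. These NT-LW changes start from the 2-cell library, whose excess of higher members over IV-D depended on scaling, as given above. From the 4-cell to the 8-cell embryo ZNF322 changed by -1.42 in IV-D, 1.12 in NT-D and 1.13 in NT-LW, and ZNF410 by -1.69 in IV-D and 1.85 in NT-D. From the 8-cell embryo to the morula ZNF621 changed by -1.83 in IV-D and by 1.19 in NT-LW.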

How the results depend on the processing

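Of 141 recomputed counts of the main comparisons, 100 stayed within 1.5 times the reported one. Of these 100, 23 came from the setting without a minimum FPKM. That setting could not change a fold count, since a difference of more than 1 in log2(FPKM + 1) already needs over 1 FPKM. Of 183 named-gene values none changed sign and 4 fell below the fold limit (ZNF599 -0.87, ZNF471 -0.91, ZNF281 0.87 and ZNF565 -0.85). Most of these values had been picked as the largest changes, which makes a change of sign unlikely. The causes of the shifts below were not tested. Median-ratio scaling gave 20 NT-D peaks at the 4-cell stage, 27 members higher and 15 lower from the IV-D 2-cell to the 4-cell embryo, 12 higher from there to the 8-cell embryo, 6 lower from the NT-D 2-cell to the 4-cell embryo, 1 lower in NT-D than in IV-D 8-cell embryos, and 18 IV-D peaks at the 8-cell stage. The common sum gave 1 lower at IV-D 2-cell to 4-cell, 24 lower at NT-LW 4-cell to 8-cell, 9 higher in NT-D and 8 higher and 16 lower in NT-LW 4-cell embryos against IV-D, and 11 higher and 10 lower in NT-D and 8 lower in NT-LW 8-cell embryos. A pseudocount of 0.1 gave 6 lower at IV-D 2-cell to 4-cell, 35 higher at NT-D 2-cell to 4-cell, 24 lower at NT-LW 4-cell to 8-cell, 11 higher in NT-D and 9 higher and 16 lower in NT-LW 4-cell embryos, and 8 lower in NT-D and 32 higher in NT-LW 8-cell embryos. A minimum of 5 FPKM, which leaves fewer members to test, gave 23 higher at IV-D 2-cell to 4-cell, 14 higher at IV-D 4-cell to 8-cell, 12 and 10 higher at NT-D and NT-LW 2-cell to 4-cell, 3 higher and 11 lower in NT-D and 3 higher in NT-LW 4-cell embryos. The binomial test on fragments gave 7 lower at IV-D 2-cell to 4-cell, 42 and 29 higher at NT-D and NT-LW 2-cell to 4-cell, 25 lower at NT-LW 4-cell to 8-cell, 14 higher in NT-D and 12 higher and 20 lower in NT-LW 4-cell embryos, and 29 higher and 9 lower in NT-D and 36 higher in NT-LW 8-cell embryos. Peaks at least 1.5 times the next stage numbered 15 in IV-D and 5 in NT-D at the 4-cell stage, and 17, 23 and 14 in IV-D, NT-D and NT-LW at the 8-cell stage. No paired analysis was possible because each condition of the table was 1 library, and the titles that carry a replicate number all carry 1. Members near 1 FPKM rest on few fragments, and a difference there was limited by depth.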
